A study of Homo sapiens with 6 samples.

Results

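The colony-stimulating factors and their receptors were examined in MDA-MB-231, a mesenchymal human breast cancer cell line classed as triple-negative, after treatment with PDBAG1. The study found this peptide to bind the mitochondrial protein C1QBP and to promote its degradation. PDBAG1 includes a cell-penetrating sequence, and no group of this series received that sequence alone, so its own effect was not tested. The members were the rows whose gene symbol was CSF1, CSF2, CSF3, IL34, CSF1R or CSF2RA, which gave 6 of the 17631 genes in the files. The RNA-seq data held 3 vehicle libraries and 3 libraries of cells given 30 µM PDBAG1, all for 24 h and all grown in medium with serum at normal oxygen. The labels name the source as breast cancer tissue and also as this cell line, and the whole series rests on that single line. Neither the labels nor the methods say whether the 3 libraries of a group came from separate experiments, so the spread given here is that between these libraries and may be partly technical. The 6 genes were chosen by family, with earlier log2 differences between PDBAG1 and vehicle known, that of CSF2 among them, so their values are given as a description with fold changes and errors but without p-values.

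Colony-stimulating factors are secreted proteins named for the blood cell colonies they raise from bone marrow. CSF1 encodes M-CSF, which keeps macrophages alive through the receptor tyrosine kinase CSF1R, and IL34 encodes a second ligand of the same receptor. CSF2 encodes GM-CSF, which acts on macrophages, granulocytes and dendritic cells through a receptor made of a specific alpha chain, CSF2RA, and a signalling beta chain, CSF2RB. CSF3 encodes G-CSF, which drives the production of neutrophils through CSF3R. Many carcinoma cells make these ligands, and tumour-derived M-CSF, GM-CSF and G-CSF are well known to recruit and shape myeloid cells in tumours.

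Values are TPM, a share of each library's transcripts corrected for transcript length, so that levels of different genes can be set side by side within a library. The unit does not retain depth, which is therefore unknown, and no counting error can be given. A TPM of 1 or more was reached by 12392 to 12611 genes in a library, and the 12582 genes that did so in at least 3 libraries were tested with limma on the log2(TPM + 1) scale. All 6 members passed this filter. Over these genes, log2 differences had an SD of 0.14 to 0.18 for libraries of the same treatment and of 0.28 to 0.30 for libraries of different treatments. Of 5 genes that mark mesenchymal triple-negative lines (VIM, CD44, AXL, CAV1 and FOSL1), all were abundant, with a summed level of 5934 to 6079 TPM with vehicle and 7647 to 7721 TPM with PDBAG1. Most of that sum was VIM, which rose together with CD44, whereas AXL and CAV1 fell by 0.26 and 0.30 on the log2 scale (limma adjusted p = 0.000342 and 6.01e-05). FOSL1 had groups that overlapped and a log2 difference of 0.18 (limma adjusted p = 0.00967). It lost the threshold under median-of-ratios scaling and without a variance trend. PGR and CDH1, which such lines lack, stayed under 1 TPM in every library, whereas ESR1 was at 1.96 to 3.38 TPM and EPCAM at 3.92 to 5.78 TPM.

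Sequence that bears on the family is shown for the members held in the RefSeq promoter table (GRCh38.p14, 250 bases before to 50 bases after the gene start), which matched 3 of the 6 members, CSF2, CSF1R and CSF2RA. The other members, CSF1, CSF3 and IL34, are named only. The windows below, for a ligand gene whose RNA was more abundant with PDBAG1, a receptor gene that was also more abundant and a receptor gene whose groups overlapped, carry capitals where a script matched the NF-kappa-B consensus, the AP-1 motif (TGANTCA), a hypoxia-response core (ACGTG or, in its other form, GCGTG), or the core of a conserved cytokine promoter element (AGATTCC). Both strands were searched.
CSF2, plus strand, chr5:132073539-132073838: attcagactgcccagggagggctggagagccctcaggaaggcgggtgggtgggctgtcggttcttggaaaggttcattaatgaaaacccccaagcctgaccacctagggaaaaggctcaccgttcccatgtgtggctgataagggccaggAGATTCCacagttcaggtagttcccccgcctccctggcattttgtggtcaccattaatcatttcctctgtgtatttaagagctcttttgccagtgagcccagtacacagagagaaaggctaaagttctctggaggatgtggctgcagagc
CSF1R, minus strand, chr5:150113316-150113615: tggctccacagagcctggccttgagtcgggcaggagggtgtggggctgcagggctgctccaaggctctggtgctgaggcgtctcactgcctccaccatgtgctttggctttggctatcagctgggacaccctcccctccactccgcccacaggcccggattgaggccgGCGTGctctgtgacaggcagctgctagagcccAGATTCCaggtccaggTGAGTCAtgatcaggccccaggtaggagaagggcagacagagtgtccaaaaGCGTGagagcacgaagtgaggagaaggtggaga
CSF2RA, plus strand, chrX:1268564-1268863: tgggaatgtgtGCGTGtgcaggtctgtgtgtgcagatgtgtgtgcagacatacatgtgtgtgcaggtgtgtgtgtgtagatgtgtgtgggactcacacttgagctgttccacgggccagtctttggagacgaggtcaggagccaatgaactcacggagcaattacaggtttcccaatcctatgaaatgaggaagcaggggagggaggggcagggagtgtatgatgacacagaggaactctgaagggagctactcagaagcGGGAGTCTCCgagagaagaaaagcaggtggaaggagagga

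The CSF2 window held 1 match, AGATTCC beginning 100 bases before the gene start, in the region where the cytokine element of this promoter is known to lie. AGATTCC was present in 3.40% of the 34961 promoter windows of the table. This CSF1R window held 4 matches, which were the cytokine element core, the AP-1 motif (present in 7.68% of windows) and GCGTG at 2 places (present in 36.6% of windows). A second CSF1R start in the table had a single match, ACGTG, which 21.4% of windows contain. The CSF2RA window held GCGTG and an NF-kappa-B consensus match beginning 10 bases after the gene start, a motif found in 5.91% of windows. A match is a description of the letters, and a missing match says only that these letters are not in this window.

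The 3 named colony-stimulating factors were all more abundant with PDBAG1, by 2.40 to 2.57 times in the ratio of group means, and in none of them did the groups overlap. CSF1 (chromosome 1, 109910242 to 109930992, plus strand, GRCh38, GENCODE v44, with 9 exons in the canonical transcript) was the most abundant member in every vehicle library, at 201, 183 and 177 TPM in vehicle libraries 1, 2 and 3. It stood at 447, 459 and 453 TPM in PDBAG1 libraries 1, 2 and 3. The lowest PDBAG1 library was 2.22 times the highest vehicle library, and the group levels were 187 ± 12.7 and 453 ± 5.95 TPM (SD, n = 3 each). The log2 difference of CSF1 was 1.27 with a standard error of 0.05. CSF1 RNA is spliced into forms for secreted and membrane-bound M-CSF, and a value per gene cannot tell them apart.

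CSF2 (chromosome 5, 132073789 to 132076170, plus strand, 4 exons) was at 159, 155 and 155 TPM in the vehicle libraries, the tightest vehicle group of the 3 factors. The PDBAG1 libraries were at 427, 404 and 376 TPM, so that every treated library lay above every vehicle library, by at least 2.37 times. CSF2 had the largest difference of the 6 members, a log2 difference of 1.36 (standard error 0.05), which ranked 24th among the 12582 genes tested. CSF1 ranked 29th and CSF3 ranked 32nd on the same scale. Among all 17631 genes ordered by level within a library, CSF2 stood between places 1070 and 1076 with vehicle and between places 334 and 372 with PDBAG1.

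CSF3 (chromosome 17, 40015361 to 40017813, plus strand, 5 exons) was the least abundant of the 3 factors. Its vehicle libraries were at 59.0, 63.3 and 64.1 TPM and its PDBAG1 libraries at 156, 147 and 145 TPM. The groups were separated by a gap of 2.26 times, and the log2 difference was 1.25 (standard error 0.05). G-CSF RNA thus reached with PDBAG1 about the level that GM-CSF RNA had with vehicle.

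IL34 (chromosome 16, 70579895 to 70660682, plus strand, 6 exons), the other ligand of CSF1R, had a level far under those of the 3 factors and groups that overlapped. The vehicle libraries were at 5.12, 4.68 and 4.82 TPM and the PDBAG1 libraries at 4.62, 5.08 and 6.10 TPM, so that the lowest and the highest of the 6 values were both treated libraries. The log2 difference was 0.09 with a 95% interval of -0.13 to 0.31 from the limma fit, an interval that leaves out changes of the size seen in the other ligands. Without PDBAG1 replicate 3 it was -0.01, and over the 6 fits that each left out a library it reached at most 0.16.

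**Figure D1:**
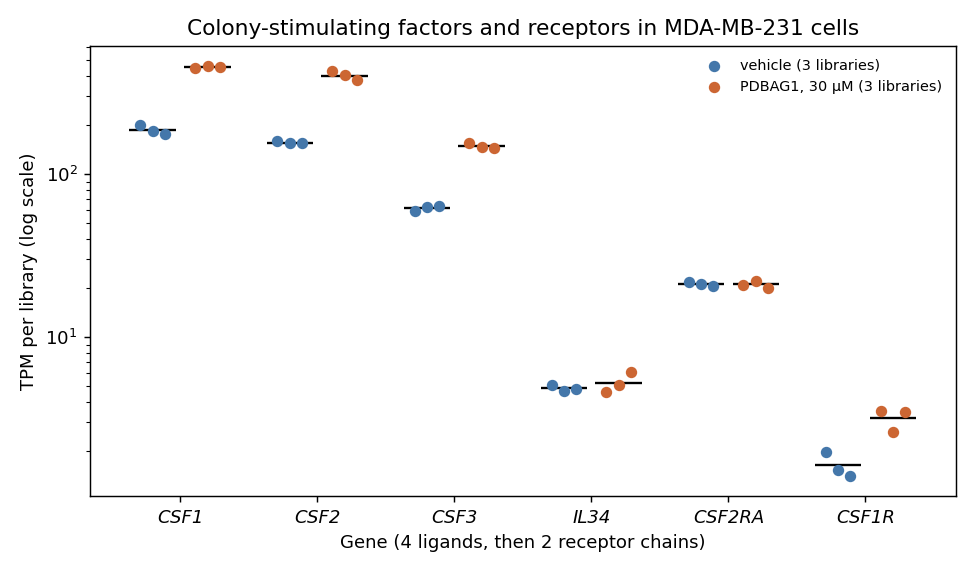
TPM of the 4 ligand genes and 2 receptor chain genes in each library, on a log axis. Each point is a library, blue for vehicle and orange for PDBAG1, and the bars are group means. CSF1, CSF2, CSF3 and CSF1R have all 3 treated libraries above all 3 vehicle libraries, whereas IL34 and CSF2RA overlap.

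The receptor chains differed from each other. CSF2RA (chromosome X, 1268800 to 1310381, plus strand, 13 exons), the alpha chain that binds GM-CSF, was at 21.7, 21.3 and 20.7 TPM in the vehicle libraries and at 20.9, 22.2 and 20.1 TPM in the PDBAG1 libraries. The groups overlapped, and the log2 difference was -0.01 with a 95% interval of -0.14 to 0.13. CSF2RA lies in the pseudoautosomal region, of which the genome build holds a copy on each sex chromosome, and how reads matching both copies were counted is not given in the sources used here.

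CSF1R (chromosome 5, 150053291 to 150113372, minus strand, 21 exons), the M-CSF receptor, was the least abundant member, close to the expression limit of 1 TPM. Vehicle libraries 1, 2 and 3 were at 1.96, 1.53 and 1.41 TPM and PDBAG1 libraries 1, 2 and 3 at 3.51, 2.62 and 3.49 TPM. The groups did not overlap, with the lowest treated library 1.34 times the highest vehicle library, and the ratio of group means was 1.96. The log2 difference was 0.67 (standard error 0.12), a scale that understates the change of so low a gene, and it was 0.93 with a pseudocount of 0.1. Under quantile normalization it was 0.57, which is under a 1.5-fold change.

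Of the 6 members, 4 were called higher at a limma adjusted p under 0.05 with a fold change of at least 1.5, the study's thresholds, and none was called lower. The same call was made for 2.86% of all genes tested as higher and for 0.477% as lower. Groups that did not overlap were found in 4 of the 6 members, against 47.4% of all genes tested in either direction. The median log2 difference of the 6 members was 0.96 and that of all genes tested was 0.03. Since the members were picked with this contrast known, nothing is read from these counts.

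The order of the ligands by level was the same in all 6 libraries, with CSF1 above CSF2, CSF2 above CSF3 and CSF3 above IL34. The proportions among the 3 factors stayed close while their sum was higher, which the ratios within each library show. CSF2 relative to CSF1 was 0.79, 0.85 and 0.88 in the vehicle libraries and 0.96, 0.88 and 0.83 in the PDBAG1 libraries. CSF3 relative to CSF1 ranged from 0.29 to 0.36 with vehicle and from 0.32 to 0.35 with PDBAG1. CSF2 relative to CSF3 ranged from 2.42 to 2.69 with vehicle and from 2.59 to 2.75 with PDBAG1. In all 3 ratios the groups overlapped.

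The summed level of the 4 ligand genes was 402 to 424 TPM in the vehicle libraries and 980 to 1034 TPM in the PDBAG1 libraries. The part of this sum held by CSF1 was 44.1% to 47.5% with vehicle and 43.2% to 46.2% with PDBAG1, and that held by CSF2 was 37.4% to 38.7% and 38.4% to 41.3%. IL34 held 1.15% to 1.21% of the sum with vehicle and 0.447% to 0.622% with PDBAG1. The ratio of ligand to receptor RNA in the same cells was higher with PDBAG1. CSF2 stood at 7.29 to 7.52 times CSF2RA with vehicle and at 18.2 to 20.5 times with PDBAG1. CSF1 stood at 103 to 126 times CSF1R with vehicle and at 127 to 175 times with PDBAG1, groups that were separated by a narrow margin.

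**Figure D2:**
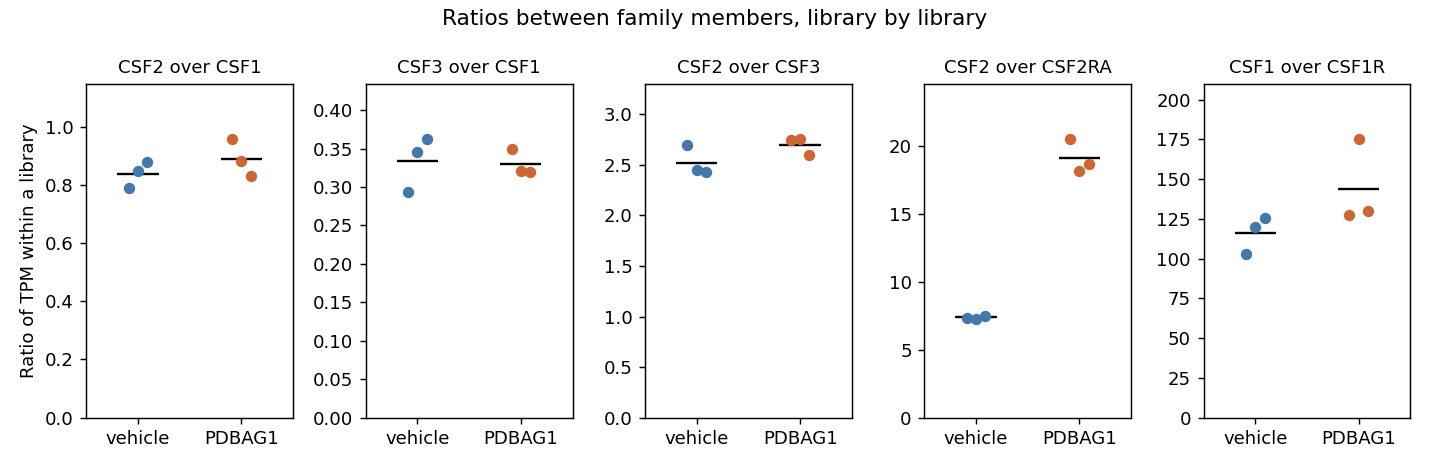
Ratios of TPM between members within each library, on linear axes that start at 0. Each point is a library, blue for vehicle and orange for PDBAG1, and bars are group means. The 3 ratios between CSF1, CSF2 and CSF3 overlap between the groups, and the ratio of CSF2 to CSF2RA goes from 7.29 to 7.52 with vehicle to 18.2 to 20.5 with PDBAG1.

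Apart from IL3 and SDC1, the remaining ligands and receptors listed for these families were at or near 0 in this line. CSF2RB, the beta chain that GM-CSF, IL-3 and IL-5 share and that carries the signal, was at 0.05, 0.10 and 0.05 TPM in the vehicle libraries and at 0, 0 and 0.02 TPM in the PDBAG1 libraries. CSF3R, the only known receptor of G-CSF, was listed at 0 in all 3 vehicle libraries and at 0, 0 and 0.05 TPM in the PDBAG1 libraries. The line therefore had RNA of the alpha chain of the GM-CSF receptor with almost none of the chain it pairs with. IL3RA was at 0.30 TPM or less in every library, IL5 at 0.14 TPM or less, IL5RA at 0.04 TPM or less and PTPRZ1, a further receptor of IL-34, at 0.15 TPM or less. IL3 was not analysed here. SDC1, a heparan sulphate proteoglycan to which IL-34 also binds, was the 1 gene of this list of 8 that could be tested, and it fell, with 48.1 ± 0.776 TPM in the vehicle group and 40.9 ± 2.48 TPM in the PDBAG1 group (SD, n = 3 each) and a log2 difference of -0.23 (limma adjusted p = 0.00509).

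CSF1R and CSF2RA are otherwise best known from myeloid cells, and RNA of blood cell markers was set beside them. Of 12 myeloid and lymphoid markers 8 had values, and their sum was 261 to 276 TPM with vehicle and 316 to 339 TPM with PDBAG1. Nearly all of it was CD68, a lysosomal protein that many cell types make, at 251 to 264 TPM with vehicle and 306 to 329 TPM with PDBAG1. The more specific markers differed in level. PTPRC, the leukocyte surface protein CD45, was at 0.86 to 1.41 TPM over the 6 libraries, SPI1, the myeloid master regulator, at 0.25 TPM or less, and ITGAM was listed at 0 in 5 of the 6 libraries. CD14, the monocyte co-receptor for lipopolysaccharide, was at 6.72 to 7.70 TPM with vehicle and 6.01 to 6.52 TPM with PDBAG1, levels above those of CSF1R. LYZ, which encodes lysozyme, was at 1.45 to 2.49 TPM and FCER1G, an Fc receptor chain, at 0.74 to 1.56 TPM over the 6 libraries. Of the 4 markers that could be tested CD68 rose (limma adjusted p = 5.50e-05), and CD14, LYZ and FCER1G did not pass. A change in the number of cells of a type and a change in RNA per cell cannot be told apart in such bulk libraries. Whether cells with these markers had a part in the higher CSF1R values was not tested.

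Genes along the chromosome were compared with the members as the 2 nearest protein-coding genes on each side in the RefSeq gene table, of which 17 were tested. At a limma adjusted p under 0.05, 8 rose and 1 fell, against 21.7% and 15.9% of all genes tested. Of the 17, 1 reached a 1.5-fold rise, against 2.86% of all genes tested. Neither of the 2 tested neighbours of CSF1 passed the test, with log2 differences of -0.02 for GSTM3 and -0.04 for AHCYL1, genes chosen after their values were seen. Beside CSF2, both tested neighbours rose. P4HA2, a collagen prolyl 4-hydroxylase known as a hypoxia-induced gene, went from 19.9 ± 0.549 to 38.9 ± 1.43 TPM (SD, n = 3 each; log2 difference 0.94, standard error 0.06, limma adjusted p = 5.09e-08). PDLIM4, the next gene after it, rose by a log2 difference of 0.47 (limma adjusted p = 4.52e-05).

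Beside CSF3 the log2 differences were 0.07 for PSMD3, which did not pass the test, 0.17 for MED24 and 0.30 for THRA, all far under that of CSF3. MED24 lost the threshold with the replicate number as a block (limma adjusted p = 0.0609) and without vehicle replicate 2 (0.0617) or vehicle replicate 3 (0.0648). These genes too were chosen after their values were seen. Beside CSF1R, HMGXB3 rose by a log2 difference of 0.42 (limma adjusted p = 4.30e-05). PDGFRB, the receptor kinase gene that lies next to CSF1R and arose from the same ancestor, was at 2.01, 1.71 and 1.62 TPM with vehicle and at 2.39, 2.51 and 2.40 TPM with PDBAG1, and its log2 difference of 0.31 (limma adjusted p = 0.0355) lost the threshold in 5 of the 6 fits that left out a library, with adjusted p values of 0.0917 without vehicle replicate 2, 0.124 without vehicle replicate 3, 0.0603 without PDBAG1 replicate 1, 0.102 without PDBAG1 replicate 2 and 0.0645 without PDBAG1 replicate 3. Its adjusted p was 0.0698 with the replicate number as a block and 0.0813 under quantile normalization. CRLF2, a chain of the TSLP receptor beside CSF2RA, was at 0.99, 0.80 and 0.69 TPM with vehicle, all under the expression limit. Its PDBAG1 libraries were at 1.18, 1.27 and 1.94 TPM. It entered the test only through the group where it was higher, so its call, counted among the 8, is no support for a rise. The log2 difference was 0.42 (limma adjusted p = 0.0277). It lost the threshold under quantile normalization (adjusted p = 0.0770) and without vehicle replicate 2 (0.0630) or vehicle replicate 3 (0.0925). CRLF2 could not be tested in the fits that left out a PDBAG1 library or asked for 1 TPM in every library, since it fell under the expression limit there.

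**Figure D3:**
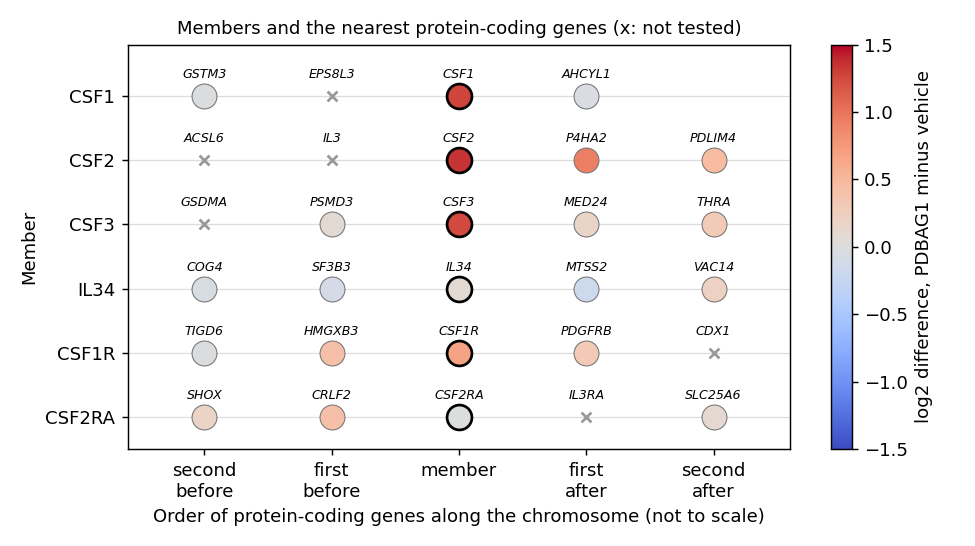
Log2 difference between PDBAG1 and vehicle for each member (black outline) and the nearest protein-coding genes before and after it along the chromosome, in gene order and not to scale. Red marks higher values with PDBAG1 and blue lower values, and crosses mark genes that were not tested. The strong reds are CSF1, CSF2 and CSF3 themselves, with P4HA2 beside CSF2 the nearest to them among the neighbours.

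Transcription factors known to act on colony-stimulating factor promoters were largely higher. The list was chosen with earlier results of these data known, so its counts are no independent support. Action of these factors on the members was not tested. Of the 20 genes of this list, all tested, 15 rose at a limma adjusted p under 0.05 and none fell. Of all genes tested, 21.7% rose and 15.9% fell. In the list, 6 rose at least 1.5-fold, against 2.86% of all genes tested, and its median log2 difference was 0.24. FOS, an AP-1 subunit, was at 2.16, 2.23 and 1.76 TPM with vehicle and at 9.62, 10.9 and 9.07 TPM with PDBAG1 (log2 difference 1.83, standard error 0.10, limma adjusted p = 1.45e-08). JUNB, its dimer partner, rose from 34.9 ± 1.57 to 74.6 ± 3.93 TPM and JUND from 78.4 ± 1.21 to 129 ± 5.62 TPM (SD, n = 3 each). CEBPB, which takes part in inflammatory gene transcription, rose from 90.7 ± 5.61 to 161 ± 10.7 TPM, and RELB, a subunit of the alternative NF-kappa-B pathway, from 12.9 ± 0.501 to 22.6 ± 1.76 TPM (SD, n = 3 each).

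Cytokine mRNAs such as that of CSF2 carry AU-rich stretches in the 3′ untranslated region that speed their decay. The CSF2 stretch is shown because it is the longest of its kind in the family, and the capitals mark a chain of ATTTA pentamers that share their end bases.
CSF2, plus strand, 3′ untranslated region, chr5:132076081-132076101 in capitals: atATTTATTTATTTATTTATTTAag
The chain held 5 pentamers, and the 318 bases of the CSF2 3′ untranslated region held 8 in all. A chain of 3 or more was present in 0.946% of 19229 canonical coding transcripts with such a region in GENCODE v44, whereas at least 1 pentamer was present in 67.8%. CSF3 held 7 pentamers in 854 bases and CSF1 4 in 2154 bases, none of them in a chain. CSF2RA held 2, and IL34 and CSF1R held none. Of the members whose levels were higher with PDBAG1, CSF2 had the densest run and CSF1R no pentamer. A part of RNA decay in these levels was not tested.

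Of 17 RNA-binding proteins and deadenylase subunits that act on such mRNAs, all tested, 4 rose and none fell at a limma adjusted p under 0.05, against 21.7% of all genes tested as higher and 15.9% as lower, and 13 did not pass. The median log2 difference of the list was 0.02, against 0.03 for all genes tested. ZFP36, which encodes tristetraprolin and promotes decay of CSF2 mRNA, went from 18.8 ± 0.432 to 29.9 ± 2.28 TPM (SD, n = 3 each; log2 difference 0.64, limma adjusted p = 7.49e-06). Its relative ZFP36L1 went from 151 ± 4.70 to 217 ± 4.55 TPM, ZC3H12A, the endonuclease Regnase-1, from 29.3 ± 0.533 to 41.6 ± 1.88 TPM, and CNOT8, a deadenylase subunit, from 68.1 ± 0.492 to 93.2 ± 4.32 TPM (SD, n = 3 each). ELAVL1, which encodes HuR and stabilises AU-rich mRNAs, had a log2 difference of -0.13 (limma, did not pass) and was chosen after its value was seen. It passed as lower under median-of-ratios scaling and quantile normalization.

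Downstream of the receptors, 19 of 24 kinases, adaptors, STAT factors and inhibitors could be tested, of which 5 rose, 1 fell and 13 did not pass at a limma adjusted p under 0.05. Of all genes tested, 21.7% passed as higher and 15.9% as lower. SOCS2, a feedback inhibitor that STAT5 induces, fell the most, from 14.4, 15.5 and 14.3 TPM with vehicle to 6.48, 8.04 and 8.05 TPM with PDBAG1 (log2 difference -0.89, standard error 0.09, limma adjusted p = 4.50e-06). CBLB, a ubiquitin ligase that restrains receptor signalling, rose from 3.09 ± 0.381 to 6.09 ± 0.722 TPM, PIM1, a kinase and STAT5 target, from 25.3 ± 0.545 to 34.5 ± 0.674 TPM, and GAB2, an adaptor of these receptors, from 14.9 ± 0.871 to 18.7 ± 1.74 TPM (SD, n = 3 each). PIM1 and SOCS2, both known STAT5 targets, moved in opposite directions. SOCS1 and SOCS3, also in this list, had log2 differences of -0.09 and 0.01 and did not pass. CISH was at 0.76 to 0.89 TPM with vehicle and at 0.60 to 0.75 TPM with PDBAG1, too low to be tested. SOCS1, SOCS3 and CISH were chosen after their values were seen. PTPN6, the phosphatase SHP-1, had a log2 difference of 0.32 (limma adjusted p = 0.0218) that lost the threshold without vehicle replicate 3 (0.0837), PDBAG1 replicate 1 (0.0739) or PDBAG1 replicate 2 (0.0754), and under quantile normalization (0.118). JAK2, the kinase bound to CSF2RB, and STAT5A and STAT5B, chosen after their values were seen, had log2 differences of 0.16, 0.11 and 0.01 and did not pass, with limma adjusted p values of 0.250, 0.256 and 0.885.

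**Figure D4:**
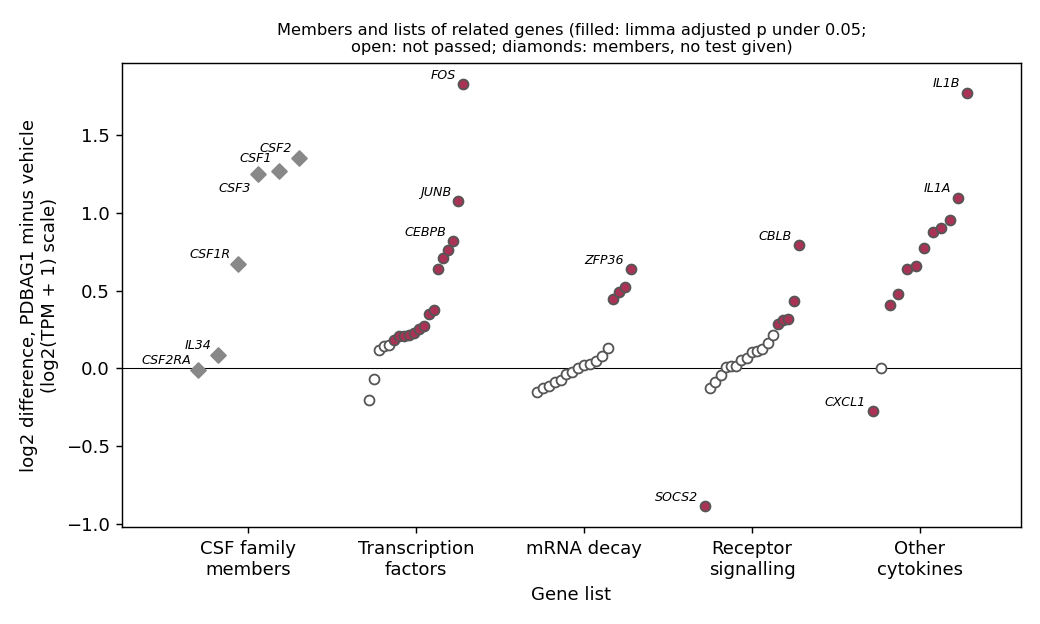
Log2 difference between PDBAG1 and vehicle on the log2(TPM + 1) scale for the 6 members (grey diamonds, no test given) and the tested genes of 4 lists, each point a gene. Filled points passed a limma adjusted p of 0.05 and open points did not. CSF1, CSF2 and CSF3 sit at 1.25 to 1.36, above every gene of the lists except FOS at 1.83 and IL1B at 1.77.

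CSF1, CSF2 and CSF3 were then set beside other inflammatory cytokines and chemokines. Of 13 such genes 12 could be tested, of which 10 rose and 1 fell at a limma adjusted p under 0.05, against 21.7% and 15.9% of all genes tested. Of these, 8 rose at least 1.5-fold, against 2.86% of all genes. Earlier results on these data already included several of these genes, so the count is no independent support. IL1B had a log2 difference of 1.77, the 1 gene of the list above CSF3, CSF1 and CSF2. It was followed by IL1A with 1.10, the chemokine genes CCL20 with 0.95 and CXCL2 with 0.91, and IL6 with 0.88. CXCL1 fell by 0.28 on the log2 scale and CCL5, at 3.54 to 5.59 TPM over the 6 libraries, did not pass, both chosen after their values were seen. TNF was at 1.14 TPM or less in every library and was not tested.

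The genes whose pattern over the 6 libraries was most like that of each member were found by the smallest root mean square difference in log2(TPM + 1), centred on each gene's mean, among the 12582 genes tested. Such likeness over 6 libraries in 2 groups mostly reflects the size of the group difference. For CSF1 these were PNRC1, ERRFI1 and VGLL4, at 0.03, 0.04 and 0.05 log2 units, and CSF2 and CSF3 stood in 11th and 19th place. For CSF2 they were ALDOC, a glycolytic aldolase, DDIT4, an inhibitor of mTOR signalling induced by hypoxia, and CSF3 itself, all at 0.07 to 0.08. For CSF3 they were AMPD3, BNIP3, a mitophagy receptor induced by hypoxia, and SPAG4, at 0.05 to 0.06, with CSF2 in 7th place. For CSF1R they were THEMIS2, AKR1C1 and MFAP4, at 0.05 to 0.08. For IL34, they were FCHSD2, GOLIM4 and KCNQ3, and for CSF2RA, ZSWIM7, HEATR6 and MMUT, all genes with log2 differences between -0.03 and 0.10.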

How the data were processed

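Total RNA of treated MDA-MB-231 cells was sequenced by the authors as mRNA libraries on the BGISEQ-500 platform, and clean reads were mapped with HISAT2 to GRCh38. The submitters' processing notes list HISAT2 2.0.4, Bowtie2 2.2.5 and RSEM 1.2.12. The methods describe FPKM, whereas the authors deposited TPM with 2 decimals, whose sum is alike in all libraries. Of the genes, 12582 reached 1 TPM in at least 3 of 6 libraries and were tested on log2(TPM + 1) in R 4.3.3 with limma 3.58.1 (lmFit, eBayes with a variance trend), with Benjamini-Hochberg adjustment over all genes, and called at 1.5-fold or more with an adjusted p under 0.05. An exact permutation test of 3 against 3 libraries cannot go below a two-sided p of 0.1. The steps were tested on simulated data. The members and lists were chosen with earlier results of these data known. Named were all members, the family list, up to 5 genes past the threshold per other list with the largest differences, and the 3 nearest profiles per member. Positions are from GENCODE v44 (GRCh38). Of the neighbouring genes, 1 is not reported here. Libraries with the same replicate number did not deviate together (correlations of -0.21, 0.01 and -0.08), and the numbers share no stated origin. The alternatives were other filters, a pseudocount of 0.1, median-of-ratios scaling, quantile normalization, the replicate number as a block, no variance trend, leaving out each library and other fold limits.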

Additional observations from a re-analysis of the deposited data

How the results depend on the processing

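CSF1, CSF2 and CSF3 were called higher in each of the 13 alternative fits, and CSF1R in all of them except quantile normalization. The members were picked with this contrast known, so these calls are no independent support. Of all 12582 genes tested, 287 were called higher under quantile normalization and 360 in the main fit. With each library left out, the log2 differences ranged from 1.23 to 1.33 for CSF1, 1.31 to 1.40 for CSF2, 1.21 to 1.27 for CSF3, -0.01 to 0.16 for IL34, 0.61 to 0.78 for CSF1R and -0.05 to 0.02 for CSF2RA. That of CSF1R was 0.93 with a pseudocount of 0.1. Of 37 list genes named that passed the threshold, VAC14 and MTSS2 not counted, 31 did so in the same direction in every fit. The exceptions were PTPN6, CRLF2, PDGFRB, MED24 and KITLG, whose values stand where each gene is described, and FOSL1 (limma adjusted p = 0.0999 under median-of-ratios scaling and 0.0681 without a variance trend).

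Of all genes tested, 360 were called higher and 60 lower. These were 73 and 7 at a fold limit of 2, and 2736 and 2000 without one. With a pseudocount of 0.1, 530 were higher and 100 lower. Under quantile normalization 287 were higher and 94 lower, with 75.3% of the calls higher against 85.7% in the main fit. The counts ranged from 341 to 424 and from 56 to 75 with each library left out. When replicate numbers entered as a replicate block, 363 were higher and 64 lower, and in the lists it removed the single lower call among the neighbours (0 passed) and gave 6 higher calls there against 8, and 13 against 15 among transcription factors.

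Lower calls among signalling genes, transcription factors, decay genes and neighbours changed with scaling. The family and cytokine lists kept 1 lower call in every fit. Under median-of-ratios scaling and quantile normalization 2 signalling genes and 1 transcription factor (NFATC3) were lower, and 4 and 2 decay genes and 2 neighbours were lower, respectively. With each library left out, the lower calls ranged from 0 to 1 for transcription factors, 0 to 2 for decay genes and 0 to 1 for neighbours, and the higher calls among neighbours from 5 to 8. The cause was not tested.

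With 1 added to each TPM, the mean ratio of CSF1 to CSF1R was 71.7 with vehicle and 109 with PDBAG1, that of CSF1 to IL34 was 32.0 and 73.1, and that of CSF2 to CSF2RA was 7.09 with vehicle. TPM is a share of each library, so a change in total RNA per cell cannot be seen, and with the depth unknown the low values of CSF1R, CSF2RB and CSF3R have no counting error.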

Other observations

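Growth factors of blood cells outside the colony-stimulating factors were listed after the members' values had been seen. Of 9 other ligands, 4 could be tested, of which none rose and 1 fell at a limma adjusted p under 0.05, too few to set against the 21.7% and 15.9% of all genes tested that rose and fell. KITLG, which encodes stem cell factor, went from 4.57, 3.84 and 3.64 TPM with vehicle to 2.23, 2.92 and 3.18 TPM with PDBAG1 (log2 difference -0.41, limma adjusted p = 0.0139), and it lost the threshold without vehicle replicate 1 (0.0525) or PDBAG1 replicate 1 (0.0524). FLT3LG was at 21.7 to 21.9 TPM with vehicle and 23.0 to 25.4 TPM with PDBAG1 and did not pass (limma adjusted p = 0.0571). IL7 and IL15 had log2 differences of 0.21 and 0.12 and did not pass.

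Of 10 receptors of the same kind, 5 could be tested, of which 3 rose and 1 fell, again few genes beside the 21.7% and 15.9% of all genes. EPOR, the erythropoietin receptor, rose from 10.1 ± 0.837 to 15.4 ± 0.833 TPM (SD, n = 3 each; log2 difference 0.56, limma adjusted p = 9.64e-05), whereas its ligand gene EPO was at 0.33 TPM or less in every library. IL7R fell from 21.5, 21.9 and 21.7 TPM to 14.5, 16.5 and 17.7 TPM (log2 difference -0.40, limma adjusted p = 0.000844). KIT and FLT3, the receptor kinases closest to CSF1R, were at 0.08 TPM or less in every library. The other genes that rose were PDGFRB and CRLF2, whose values, and the fits in which they lost the threshold, stand with the neighbours of CSF1R and CSF2RA. CRLF2 passed the expression limit only in its PDBAG1 libraries, so its place among the 3 is no support for a rise.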
